A study of Homo sapiens with 9 samples.

Results

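The genes described here are 9 that carry peptides to the cell surface on HLA class I molecules: the heavy chains HLA-B, HLA-C, HLA-E and HLA-F, the light chain B2M, the peptide transporter subunits TAP1 and TAP2, and the immunoproteasome subunits PSMB8 and PSMB9. They were matched by Ensembl identifier among the 60308 gene identifiers counted in the series, and all 9 passed the filter on low counts that left 18435 genes for testing. RNA was sequenced from 9 cultures of MCF10A, an immortalised and non-tumorigenic line of human breast epithelial cells. Every culture, controls included, carried ectopic MYC and the PI3KH1047R mutant of PI3K, and a doxycycline-inducible hairpin switched on with 2 µg/mL doxycycline for 72 hours. The hairpin was scrambled (shSCR) in 3 cultures and targeted EHMT2, which encodes the histone methyltransferase G9a, in 2 sets of 3 (shG9a_1 and shG9a_4); the design text calls the 3 biological replicates. All cultures are of a single line, so they differ neither in donor nor in HLA alleles.

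Class I molecules display fragments of the proteins made inside a cell, and cytotoxic T cells and natural killer cells read them. The proteasome cuts proteins into peptides, TAP1 and TAP2 pump these into the endoplasmic reticulum, and the peptides are loaded there onto a heavy chain held by B2M. Interferons raise the transcription of the whole set in epithelial cells, and in their presence PSMB8 and PSMB9 replace constitutive catalytic subunits of the proteasome. G9a places repressive methyl marks on lysine 9 of histone H3, and the comparison of each hairpin with shSCR asks which genes differ once EHMT2 is knocked down in cells with high MYC.

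The sequence just before the start site was searched for motifs that some of the members share. RefSeq promoter windows (GRCh38.p14, another build than the GRCh37 and hg19 named in the submitters' processing notes) were found for 8 of the 9 members, and not for HLA-E. The 250 bases before the start are shown for the heavy chains HLA-B (chr6:31357180-31357429, minus strand), HLA-C (chr6:31272093-31272342, minus strand) and HLA-F (chr6:29723184-29723433, plus strand), and for B2M (chr15:44711267-44711516, plus strand), since their RNA levels are compared most closely below. TAP1 (chr6:32853705-32853954, minus strand) and PSMB9 (chr6:32853942-32854191, plus strand) are added because they start 487 bases apart in opposite directions, so that their upstream windows share 13 bases. Capitals mark matches to an NF-kB (kappaB) motif or to the letters AANNGAAA, the core bound by interferon regulatory factors (IRFs), on either strand.
HLA-B: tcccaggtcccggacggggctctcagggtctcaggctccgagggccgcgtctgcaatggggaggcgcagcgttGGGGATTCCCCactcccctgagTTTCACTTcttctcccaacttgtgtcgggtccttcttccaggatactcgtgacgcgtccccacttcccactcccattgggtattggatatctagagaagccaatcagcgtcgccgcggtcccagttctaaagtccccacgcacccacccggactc
HLA-C: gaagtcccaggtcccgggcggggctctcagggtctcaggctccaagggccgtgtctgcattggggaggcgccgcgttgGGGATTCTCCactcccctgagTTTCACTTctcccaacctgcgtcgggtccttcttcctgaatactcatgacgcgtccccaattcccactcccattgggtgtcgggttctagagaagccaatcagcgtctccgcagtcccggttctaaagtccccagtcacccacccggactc
HLA-F: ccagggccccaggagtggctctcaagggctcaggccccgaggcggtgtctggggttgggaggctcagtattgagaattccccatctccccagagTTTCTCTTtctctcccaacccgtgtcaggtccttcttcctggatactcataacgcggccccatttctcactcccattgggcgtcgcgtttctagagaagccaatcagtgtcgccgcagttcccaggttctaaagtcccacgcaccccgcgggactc
B2M: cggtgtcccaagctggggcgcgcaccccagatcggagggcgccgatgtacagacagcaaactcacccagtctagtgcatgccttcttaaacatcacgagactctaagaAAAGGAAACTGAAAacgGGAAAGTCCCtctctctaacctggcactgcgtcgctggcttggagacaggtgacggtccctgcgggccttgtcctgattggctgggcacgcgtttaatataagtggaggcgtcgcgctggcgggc
TAP1: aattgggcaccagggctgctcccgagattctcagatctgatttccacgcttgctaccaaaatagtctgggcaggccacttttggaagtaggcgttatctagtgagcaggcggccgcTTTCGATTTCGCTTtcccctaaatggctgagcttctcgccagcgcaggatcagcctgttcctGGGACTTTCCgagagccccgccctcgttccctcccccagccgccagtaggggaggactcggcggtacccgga
PSMB9: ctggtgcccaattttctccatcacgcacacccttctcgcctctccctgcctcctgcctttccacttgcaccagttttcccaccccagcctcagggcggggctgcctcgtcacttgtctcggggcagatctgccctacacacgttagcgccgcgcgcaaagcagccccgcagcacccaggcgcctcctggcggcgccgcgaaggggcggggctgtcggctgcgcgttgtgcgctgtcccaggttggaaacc

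HLA-B and HLA-C were 89.0% identical over these upstream bases, and HLA-F was 80.4% identical to HLA-B and 78.7% to HLA-C. In HLA-B and HLA-C the kappaB match lay just before the AANNGAAA match, and HLA-F had the latter without a kappaB match. Over the full windows of 300 bases, in which 50 bases follow the start, AANNGAAA was found in 7 of the members' 10 windows (TAP1 and PSMB8 have 2 each), those of HLA-B, HLA-C, HLA-F, B2M, TAP1, TAP2 and PSMB8, against 22.8% of all 35116 promoter windows in the table. The longer interferon-stimulated response element that contains it, a pair of GAAA repeats with NN between them, was found in 5 windows (HLA-F, B2M, TAP1, TAP2 and PSMB8) against 3.57%. The kappaB motif was found in 4 (HLA-B, HLA-C, B2M and TAP1) against 11.3%. TTCNNNGAA, the element known as GAS, was found in 2, for TAP1 and PSMB8, against 7.66%. TGACG, the core of cAMP response elements that forms part of the class I enhancer, was found in 6 windows against 24.6%, and CCAAT in 6 against 34.6%. CACGTG, the E-box bound by MYC and MAX, was found in none of the 10 and in 7.26% of all windows. Both strands were searched, matches of different motifs may overlap, and a match is a run of letters and not a measured binding site.

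EHMT2 RNA was lowest in shG9a_1 and intermediate in shG9a_4, in every library. Its levels in CPM (read counts scaled to each library's reads in genes and by the TMM factors of edgeR) were 51.1, 45.2 and 45.4 for shSCR, 17.6, 22.6 and 21.0 for shG9a_1, and 32.1, 27.2 and 33.5 for shG9a_4. It fell by 1.21 on the log2 scale in shG9a_1 (edgeR quasi-likelihood test with Benjamini-Hochberg adjustment over all genes, adjusted p = 0.00766), and its log2 difference of −0.61 in shG9a_4 did not pass the threshold of 0.05 (edgeR adjusted p = 0.259), but did so with no filter on low counts (2.243e-05) and in DESeq2 (0.0009625). The shG9a_1 call was not made when shG9a_1 replicate 2 was left out (edgeR adjusted p = 0.0513), likewise shSCR replicate 1 (0.0611) and shG9a_1 replicate 3 (0.0622). Reads in genes ranged from 53065611 to 76958831 per library. Basal epithelial markers (8 genes) summed to 2817 to 4729 CPM, and leukocyte markers (8 genes) to 1.96 to 6.27 CPM, with AIF1 at 0 in all 9 libraries and CD14 the only one to exceed 0.1 CPM in any, so that these sums are nearly all CD14.

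Within the pathway the light chain dominated. On a scale of CPM per kilobase of the median coding transcript in GENCODE 29, the mean level in shSCR was 577 for B2M, 76.7 for HLA-B, 65.9 for HLA-C, 39.4 for PSMB8, 30.8 for TAP1, 27.4 for HLA-E, 7.10 for TAP2, 3.48 for PSMB9 and 3.39 for HLA-F. B2M pairs with every class I heavy chain. The standard deviations over the 3 shSCR libraries were 20.9 for HLA-B and 1.83 for HLA-C. On this scale these neighbours in the order did not differ beyond their spread. Nor did TAP1 (2.47) and HLA-E (2.62), nor PSMB9 (0.105) and HLA-F (0.226). The order of HLA-B and HLA-C depends on the lengths used, 664.5 and 1536 bases. In CPM, without lengths, the shSCR means were 51.0 for HLA-B and 101.2 for HLA-C, and HLA-C was higher in every shSCR library. PSMB8 was 11.3 times as high as its immunoproteasome partner PSMB9 per kilobase, and TAP1 4.34 times as high as TAP2, in the shSCR means. The lengths used were 2139 bases for TAP1 and 5676 for TAP2, and their shSCR means in CPM were 65.9 and 40.3.

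**Figure D1:**
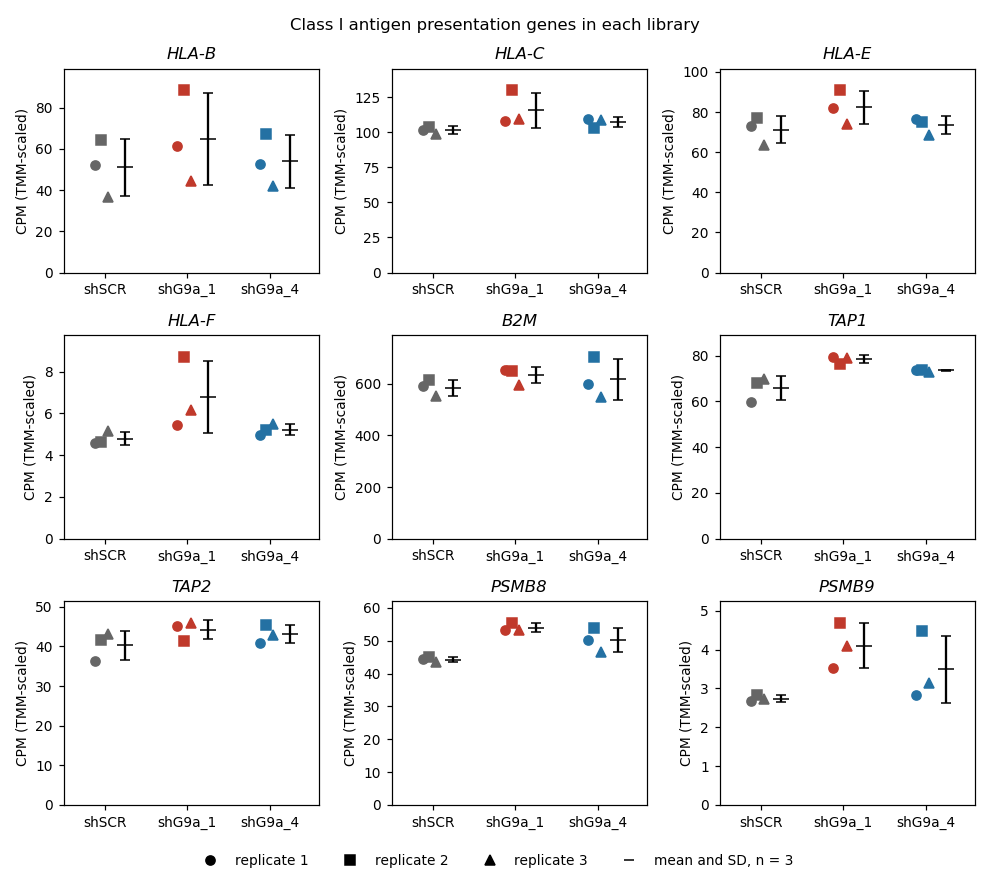
TMM-scaled read counts (CPM) of each of the 9 genes in each library, by hairpin, with symbols for the replicate number and a bar for the mean and SD of 3 libraries (axes start at 0). PSMB8 sits between 43.4 and 45.0 CPM in shSCR and between 53.2 and 55.4 CPM in shG9a_1, while HLA-B varies more between replicate numbers than between hairpins.

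All 9 genes had a higher mean in both EHMT2 hairpins than in shSCR, but none passed the threshold in either comparison. In shG9a_1 against shSCR, 0 of 9 were called by edgeR at an adjusted p under 0.05, beside 7 of 18435 genes (0.038%), and 6 had an unadjusted p under 0.05 and were higher, beside 4.34% of all genes. In shG9a_4 against shSCR, 0 of 9 were called beside 0.0271% of all genes, and 2 had an unadjusted p under 0.05 and were higher, beside 1.4%. The median log2 fold change of the 9 genes was 0.25 in shG9a_1 and 0.10 in shG9a_4, where the median of all genes tested was 0.00 in both. The comparisons share the shSCR libraries, so a similar direction in both is not independent evidence. In bulk RNA, more RNA per cell and a larger share of cells with the RNA cannot be told apart.

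HLA-B, a classical heavy chain that presents peptides to cytotoxic T cells, measured 52.1, 64.3 and 36.6 CPM over the shSCR libraries, 61.3, 88.3 and 44.2 CPM over shG9a_1 and 52.8, 67.3 and 41.8 CPM over shG9a_4. The groups overlapped widely, and replicate 2 was the highest and replicate 3 the lowest library of each group. The log2 fold change was 0.34 (SE 0.26, edgeR adjusted p = 0.828) in shG9a_1 and 0.08 (SE 0.26) in shG9a_4. Each shG9a_1 library was above the shSCR library of its own number, and with the replicate number as a block in the fit the adjusted p in shG9a_1 was 0.0669. Without shG9a_1 replicate 2 the log2 fold change was 0.05 (0.24 with the block, where it was 0.24 to 0.37 over the 9 libraries left out in turn), and without the block the value in shG9a_4 turned to −0.12 without shSCR replicate 3 and to −0.11 without shG9a_4 replicate 2.

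HLA-C, the other classical heavy chain and a main ligand of killer-cell receptors, measured 102, 104 and 98.3 CPM over the shSCR libraries, 108, 130 and 109 CPM over shG9a_1 and 110, 103 and 109 CPM over shG9a_4. Every shG9a_1 library lay above every shSCR library, and replicate 2 stood far above the other shG9a_1 libraries. The log2 fold change in shG9a_1 was 0.19 (SE 0.08, unadjusted p = 0.0309, edgeR adjusted p = 0.633), and 0.10 without that library.

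HLA-E, a non-classical heavy chain that shows leader peptides of other class I chains to natural killer cells, measured 72.8, 77.1 and 63.8 CPM over the shSCR libraries, 82.2, 90.8 and 74.0 CPM over shG9a_1 and 76.8, 75.0 and 68.5 CPM over shG9a_4. Each shG9a_1 library was above the shSCR library of its own number, although the groups overlapped. The log2 fold changes were 0.21 (SE 0.09, edgeR adjusted p = 0.658) in shG9a_1 and 0.04 in shG9a_4, and the latter was −0.04 without shSCR replicate 3.

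HLA-F, a non-classical heavy chain of low level, measured 4.60, 4.61 and 5.16 CPM over the shSCR libraries, 5.45, 8.72 and 6.14 CPM over shG9a_1 and 4.97, 5.19 and 5.49 CPM over shG9a_4. The shG9a_1 libraries lay above all shSCR libraries, with replicate 2 again the highest. The log2 fold change in shG9a_1 was 0.50 (SE 0.17, edgeR adjusted p = 0.605), or 0.28 without replicate 2, and in shG9a_4 it was 0.12. Of the stranded reads over HLA-F, 16.4 to 25.9% lay on the other strand, where HLA-F-AS1 is transcribed. HLA-F-AS1 itself measured 2.07, 1.71 and 2.31 CPM over the shSCR libraries and 1.63, 1.68 and 1.69 CPM over shG9a_1, with a log2 fold change of −0.28 (edgeR adjusted p = 0.757). Over shG9a_4 it measured 1.82, 2.20 and 2.07 CPM, a mean of 2.03 CPM as in shSCR.

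B2M measured 588, 613 and 552 CPM over the shSCR libraries, 651, 649 and 596 CPM over shG9a_1 and 598, 704 and 549 CPM over shG9a_4. The groups overlapped, and the log2 fold changes of 0.11 in shG9a_1 and 0.08 in shG9a_4 (SE 0.09 in both) were near their error. Without shG9a_4 replicate 2, the library at 704 CPM, the second value was −0.03.

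The transporter subunits differed in how clearly they separated. TAP1 measured 59.9, 67.9 and 69.9 CPM over the shSCR libraries, 79.6, 76.3 and 79.2 CPM over shG9a_1 and 73.8, 73.8 and 73.0 CPM over shG9a_4. All 6 knockdown libraries were above all shSCR libraries, and the log2 fold changes were 0.25 (SE 0.07, edgeR adjusted p = 0.517) and 0.16 (SE 0.07, edgeR adjusted p = 1.00). TAP2, its partner in the heterodimer, measured 36.2, 41.5 and 43.0 CPM over the shSCR libraries, 45.1, 41.5 and 46.0 CPM over shG9a_1 and 41.0, 45.5 and 42.9 CPM over shG9a_4. Its groups overlapped, with log2 fold changes of 0.13 and 0.10 (SE 0.08 in both).

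PSMB8, which takes the place of the constitutive subunit PSMB5, measured 44.3, 45.0 and 43.4 CPM over the shSCR libraries, 53.2, 55.4 and 53.2 CPM over shG9a_1 and 50.1, 53.9 and 46.6 CPM over shG9a_4. Both knockdown groups lay above shSCR without overlap, and the shSCR libraries differed by less than 2 CPM. The log2 fold change was 0.29 (SE 0.07, unadjusted p = 0.00157, edgeR adjusted p = 0.380) in shG9a_1 and 0.18 (SE 0.07, unadjusted p = 0.0223) in shG9a_4. In shG9a_1 it had the smallest unadjusted p of the 9 genes, and its adjusted p was 0.0595 with the replicate block and 0.0726 in DESeq2.

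PSMB9, which takes the place of PSMB6, measured 2.67, 2.83 and 2.72 CPM over the shSCR libraries, 3.52, 4.69 and 4.08 CPM over shG9a_1 and 2.84, 4.48 and 3.15 CPM over shG9a_4. The shG9a_1 libraries stood apart, while the lowest shG9a_4 library was only just above the highest shSCR library. The log2 fold changes were 0.58 (SE 0.19, edgeR adjusted p = 0.592), the highest of the 9 genes in shG9a_1, and 0.35 (SE 0.19). With single libraries left out in turn, they ranged from 0.47 to 0.68 in shG9a_1 and from 0.12 to 0.48 in shG9a_4. PSMB8-AS1, an antisense gene named after PSMB8, measured 1.33, 1.10 and 1.32 CPM over the shSCR libraries, 1.78, 1.67 and 1.60 CPM over shG9a_1 and 1.39, 1.55 and 1.45 CPM over shG9a_4.

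**Figure D2:**
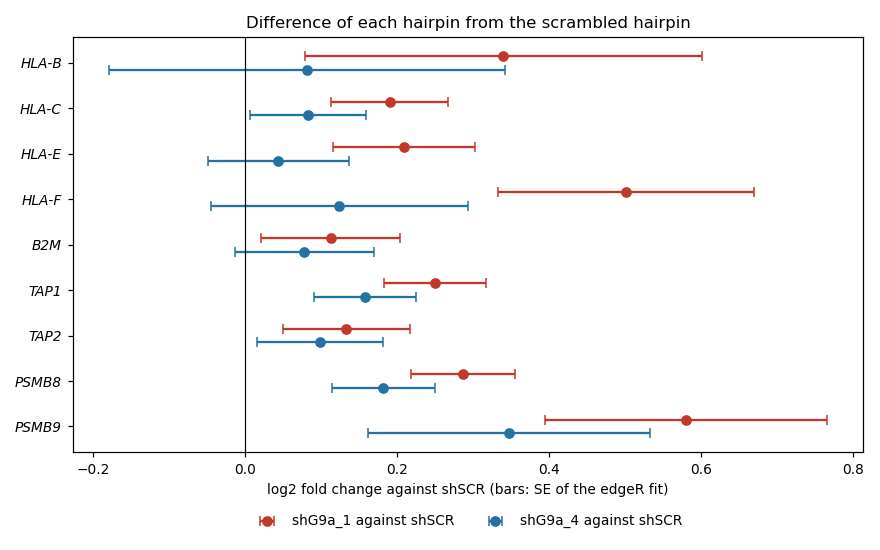
Log2 fold change of each of the 9 genes in shG9a_1 and in shG9a_4 against shSCR, with bars for the SE of the edgeR fit. All 18 points lie to the right of 0, and for each gene the shG9a_4 value is below the shG9a_1 value.

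Counted without a model, 5 of the 9 genes (HLA-C, HLA-F, TAP1, PSMB8 and PSMB9) were higher in every shG9a_1 library than in any shSCR library, beside 7.15% of all genes. In shG9a_4 these were 3 (TAP1, PSMB8 and PSMB9), beside 3.25% of all genes. Averaged over both hairpins, none of the 9 was called (0.0488% of all genes were), 3 had an unadjusted p under 0.05 and were higher (TAP1, PSMB8 and PSMB9, beside 2.78%), and the median log2 fold change was 0.20.

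The replicate block left the call at 0 of 9 in all 3 comparisons, beside 0.776% of all genes called in shG9a_1, 0.0759% in shG9a_4 and 0.184% for their mean. DESeq2 also called none of the 9 in shG9a_1, beside 0.397% of the genes it adjusted. The blocked count rested on a single library of the other hairpin: without shG9a_4 replicate 2, the blocked fit called 5 of the 9 higher in shG9a_1, beside 2.91% of all genes. These were HLA-B (edgeR adjusted p = 0.0191), HLA-E (0.0362), TAP1 (0.0488), PSMB8 (0.0168) and PSMB9 (0.0334) in edgeR, and leaving out any of the other 8 libraries from the blocked fit gave 0.

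The difference between the hairpins was tested directly. All 9 genes were lower in shG9a_4 than in shG9a_1, with log2 differences from −0.03 for TAP2 to −0.38 for HLA-F and a median of −0.11 (−0.00 for all genes tested). None of them was called by edgeR, nor was any other gene (0.0% of all genes). HLA-F had an unadjusted p of 0.0462 in the edgeR fit across all genes. It was the only member under 0.05, beside 1.9% of all genes that were under it and lower. TAP1 was the only member whose groups did not overlap in this comparison, beside 758 of 18435 genes that did not overlap and were lower. EHMT2 was lower in shG9a_1 than in shG9a_4, so the hairpin with the lower EHMT2 level had the higher mean of every member, in 2 groups of 3 libraries that differ in hairpin sequence as well.

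The table of comparisons deposited by the authors holds 4 of the 9 genes (B2M, TAP1, TAP2 and PSMB8). For shG9a_1, the authors' deposited table gives a posterior probability of different expression (PPDE) of 1.00 for PSMB8, with a fold of 1.21, and of 0.997 for TAP1, with a fold of 1.20. These 2 reached 0.95, as did 2.92% of the 11015 genes in the authors' deposited table. The probabilities there for B2M and TAP2 were 0.00305 and 0.00918. For shG9a_4 the authors' deposited table puts none of the 4 at 0.95 (0.599% of its genes are), with 0.0963 for PSMB8 and 0.0118 for TAP1.

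HLA-B was also the member that differed most between replicate numbers. The labels number the cultures of each hairpin from 1 to 3 and tie these numbers to no day or batch. In a fit with the hairpin and the number, HLA-B was 0.44 lower on the log2 scale in number 3 than in number 1 and 0.83 lower than in number 2 (F-test of edgeR for both differences, edgeR adjusted p = 0.000142). In this fit HLA-B was the only one of the 9 called, beside 7.47% of all genes. With no filter on low counts, HLA-E and B2M were called as well (edgeR adjusted p = 0.0463 and 0.0373). HLA-E was also called without shG9a_4 replicate 2 (edgeR adjusted p = 0.0147). In the filtered fit HLA-E came next (edgeR adjusted p = 0.0637), lower in number 3 by 0.17 than in number 1 and by 0.23 than in number 2. The other 7 had adjusted p-values from 0.153 to 0.775 in edgeR. HLA-C, next to HLA-B on the chromosome and 89.0% identical in its upstream bases, had differences of −0.01 and −0.09. The spread over numbers in HLA-B exceeded its difference between hairpins.

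The genes of class II presentation, which loads peptides from outside the cell, moved with the number too. All 9 that were tested were called and lowest in number 3. Of all 18435 genes, 1377 were called, and 581 were called and lowest in number 3. HLA-DRA, the class II alpha chain, was 10.6 times higher in number 1 and 14.8 times higher in number 2 than in number 3. CIITA, the transcriptional coactivator that switches class II genes on, was lower in number 3 by 1.59 on the log2 scale than in number 1 and by 1.65 than in number 2. The summed level of 10 class II genes was 33.7 to 61.1 CPM in number 1, 37.7 to 77.8 CPM in number 2 and 8.81 to 10.9 CPM in number 3. Fibroblast markers (6 genes) summed to 280 to 421 CPM in numbers 1 and 2 and to 140 to 197 CPM in number 3. DCN, a matrix proteoglycan, made up most of this (135 to 413 CPM over all libraries). DCN and LUM were called, with log2 differences of number 3 from number 1 of −1.03 and −0.79, and from number 2 of −1.26 and −1.25. COL1A1 and PDGFRB were not called, with differences of 0.21 and 0.43 from number 1 and of −0.01 and −0.34 from number 2. COL1A2 and COL3A1 did not pass the filter. Basal epithelial markers, mostly the keratin KRT5, summed to 2817 to 4309 CPM in numbers 1 and 2 and to 4029 to 4729 CPM in number 3. The part of cell composition in the HLA-B difference was not tested.

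**Figure D3:**
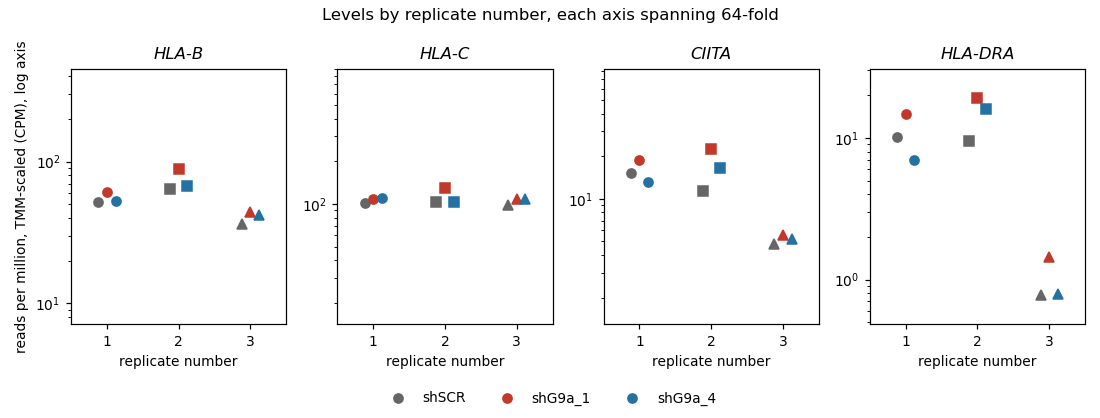
TMM-scaled read counts (CPM) of HLA-B, HLA-C, CIITA and HLA-DRA by replicate number on log axes of equal span, coloured by hairpin. HLA-DRA is 10.6 times lower in number 3 than in number 1, HLA-B is lowest in number 3 for each hairpin, and HLA-C has no such step.

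The other genes of the pathway stayed close to shSCR. Of 7 genes of peptide loading and trimming, 6 were higher and 1 lower in shG9a_1, with a median log2 fold change of 0.05, none called and none with an unadjusted p under 0.05. TAPBP, the tapasin that bridges TAP and the heavy chain, was at 0.15 in shG9a_1, its homologue TAPBPL at 0.17, and the chaperone CALR at 0.05 (0.11 in shG9a_4). Of 8 further proteasome parts tied to the immunoproteasome or its constitutive counterparts, 5 were higher and 3 lower (median 0.02), and of 11 constitutive core subunits 6 were higher and 5 lower (median 0.02), with none called. PSME2, a subunit of the interferon-inducible activator, was at 0.08, PSME3, a subunit of a nuclear activator, at −0.03, and PSMB7, a constitutive catalytic subunit, at −0.01 in shG9a_1. Of the core subunits, PSMA2 was at 0.08 in shG9a_1 and 0.28 in shG9a_4, PSMA4 at −0.07 and −0.04, and PSMA6 at −0.15 and 0.01. PSMB8 and PSMB9 therefore had larger differences than any of these 19 proteasome genes in shG9a_1, where the highest was 0.16. In shG9a_4 this did not hold for PSMB8, at 0.18 below PSMA2 at 0.28, while PSMB9 was at 0.35. PSMB10, one of the 8 further parts, had means of 2.54 CPM in shSCR, 2.84 CPM in shG9a_1 and 2.47 CPM in shG9a_4.

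The known regulators of class I transcription showed no common direction. Of 13, 8 were higher and 5 lower in shG9a_1 with a median of 0.02, and none was called against shSCR or between the hairpins. By replicate number, RFX5 and ATF1 were called (edgeR adjusted p = 0.00742 and 0.0117). Both were lowest in number 3, by 0.27 and 0.23 on the log2 scale below number 1. These were 2 of the 13, beside 1377 of all 18435 genes called and 581 called and lowest in number 3. CREB1, which binds cAMP response elements, was at 0.19 (unadjusted p = 0.0801), and the CCAAT-binding subunits NFYB and NFYC were at −0.16 and −0.10. In shG9a_4 these 3 were at 0.13, −0.07 and −0.07.

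No interferon gene was called in either hairpin. Of 14 interferon receptor and signalling genes, 11 were higher in shG9a_1 (median 0.12) and 12 in shG9a_4 (median 0.06). SOCS1, a feedback inhibitor of interferon signalling, was at 0.68 in shG9a_1 and −0.08 in shG9a_4, from a level under 1 CPM, and the receptor chain IFNGR1 was at 0.28 and 0.21.

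Of 19 interferon response genes, 17 were tested, and 16 were higher and 1 lower in shG9a_1, with a median of 0.29, which is close to the 0.25 of the 9 members. In shG9a_4, 13 were higher and 4 lower (median 0.09). None was called. An unadjusted p under 0.05 and a higher level were found for 4 in shG9a_1, beside 4.34% of all genes, and for 3 in shG9a_4, beside 1.4%. By replicate number, 4 of the 17 were called and 3 of these were lowest in number 3, beside 1377 and 581 of all 18435 genes. IFI27, a mitochondrial interferon-induced protein, measured 0.232, 0.390 and 0.484 CPM over the shSCR libraries and 0.832, 0.590 and 0.798 CPM over shG9a_1 (log2 fold change 1.01, edgeR adjusted p = 0.544). IFI44 was at 0.29 in shG9a_1 and 0.28 in shG9a_4, and IFI44L at 0.24 and 0.22.

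**Figure D4:**
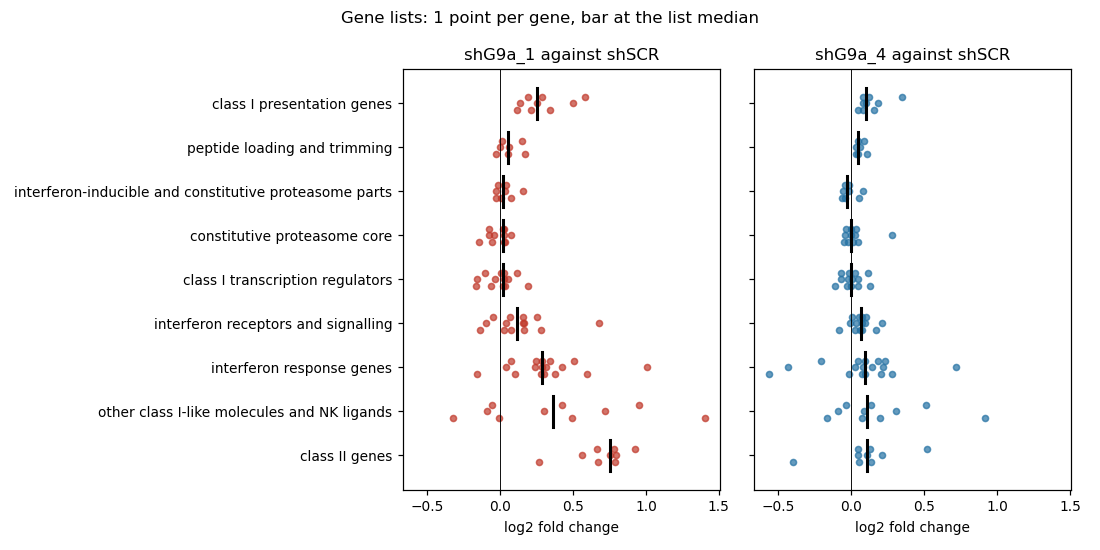
Log2 fold change of every tested gene of each list in shG9a_1 (left) and shG9a_4 (right) against shSCR, with a bar at the list median. Peptide loading, proteasome and regulator lists centre near 0, and the medians in shG9a_1 are 0.25 for the 9 class I genes, 0.29 for interferon response genes and 0.75 for class II genes. None of these was called in the filtered edgeR fit.

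Other class I-like molecules and ligands of natural killer receptors split. Of 10 tested among 13 listed, 6 were higher and 4 lower in shG9a_1, and none was called in the fit without the block. AZGP1, a secreted class I-like protein, measured 0.278, 0.649 and 0.577 CPM over the shSCR libraries, 1.08, 1.67 and 1.26 CPM over shG9a_1 and 0.710, 1.17 and 0.989 CPM over shG9a_4. Both knockdown groups stood above shSCR, with log2 fold changes of 1.41 (edgeR adjusted p = 0.378, and 0.0166 with the replicate block) and 0.92. MR1, which presents vitamin metabolites to mucosal T cells, was at 0.42 in shG9a_1 (edgeR adjusted p = 0.579, 0.0591 with the block and 0.00514 with no filter) and 0.13 in shG9a_4. ULBP2, a stress ligand of an activating natural killer receptor, was at 0.50 and 0.20.

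The genes most like the members were sought by their pattern over the 9 libraries, as the root-mean-square difference between a gene's centred log2 CPM and the mean centred profile of the 9 genes. The 5 closest were DUSP1 (0.0526), ARL6IP5 (0.0545), ZNF503 (0.0620), RSPH3 (0.0698) and HINT3 (0.0700). Among the members PSMB8 was closest to their mean (0.0586) and HLA-B farthest (0.271). DUSP1, a phosphatase of MAP kinases, was at 0.28 in shG9a_1 and 0.08 in shG9a_4, ARL6IP5 at 0.28 and 0.19, and ZNF503 at 0.36 and 0.19. None of the 5 was called against shSCR (edgeR adjusted p from 0.592 to 0.669 in shG9a_1). They were chosen for closeness to the members' profile in these same libraries, so fold changes near those of the members follow from the choice. The same holds for their centred levels, lower in shSCR replicate 3 than in shSCR replicates 1 and 2. The members' mean profile had that order itself (−0.189 in replicate 3, −0.1655 in replicate 1 and −0.05828 in replicate 2).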

How the data were processed

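Stranded total RNA libraries from 9 cultures were deposited by the authors as whole-number read counts for each gene, in the aligner STAR's layout. GRCh37, hg19, STAR 2.5.2a, DESeq, R 3.3.1 and edgeR 3.14.0 appear in the submitters' processing notes; the annotation release is not given there. Reverse-strand counts were used (94.7 to 95.1% of stranded reads). Reads that map to several places or to overlapping genes on one strand are not counted in this layout, so levels of the near-identical HLA genes are uncertain. Each library's 4 summary classes that name no gene (12.2 to 15.4% of read pairs without a feature, 2.49 to 2.68% ambiguous, 4.58 to 5.49% multimapped, 2.75 to 4.34% unmapped) stayed out of library sizes and tests. The authors' 2 tables of comparisons hold, per the file headers, posterior probabilities (scores from 0 to 1) and linear folds (ratios).

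Groups and replicate numbers came from the sample titles. All genes were fitted in edgeR 4.0.16 under R 4.3.3 (quasi-likelihood F-test, TMM, filterByExpr, 18435 genes, 1 fit of 9 libraries with 6 residual degrees of freedom, two-sided, Benjamini-Hochberg over all genes tested, threshold 0.05). CPM values are the deposited counts scaled to each library's reads in genes and by its TMM factor. The code was tested on simulated data. The members, the 9 gene lists and 5 marker lists and the tests were chosen with earlier results of these data known. Named beside the members are the 3 genes of each list with the smallest unadjusted p against shSCR in either hairpin, any gene called between hairpins, EHMT2, antisense genes, and the 5 genes nearest in pattern. HLA-DRA, RFX5, ATF1, PSMB10, MICA, MICB and single markers were chosen after their values were seen, as were the promoter motifs and the class II and fibroblast sums by number. Some genes that this rule names are not reported here. TAPSAR1 and PECAM1 had no identifier match. Alternatives were RLE scaling, no filter, DESeq2 1.42.0, unstranded counts, the replicate block, and each library left out; those without all libraries of a number, and the block without each library, were added after seeing the data.

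Replicate numbers paired the libraries in the data: the correlation of deviations from the group means was 0.178 to 0.461 for the 9 same-numbered pairs (mean 0.304) and −0.327 to 0.169 for the 18 others. The block leaves 4 residual degrees of freedom.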

Additional observations from a re-analysis of the deposited data

How the results depend on the processing

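Over 14 alternatives for each comparison (RLE scaling, no filter, DESeq2, unstranded counts, the replicate block and 9 fits without a library), every one of the 9 genes stayed higher in shG9a_1 than in shSCR and none was called in either hairpin. Called genes over all genes tested were 7 in shG9a_1 and came to 288 with no filter, 65 in DESeq2, 143 with the replicate block, 0, 2 and 0 without all libraries numbered 1, 2 and 3, and 0 to 10 without single libraries. For shG9a_4 the 5 became 49, 19, 14, 1 with unstranded counts, 0, 0 and 0, and 0 to 7. For the mean of both hairpins the 9 became 126, 36, 34, 0, 0 and 0, and 0 to 11. For shG9a_4 against shG9a_1 the 0 became 106 with no filter and 4 in DESeq2, and stayed 0 without any single library. The 1377 genes that differed between replicate numbers became 2874 with no filter and 435 to 2109 without single libraries, and the 1 member among them became 3 (HLA-B, HLA-E and B2M) and 1 to 2. With the replicate block and each library left out, members called in shG9a_1 were 0 to 5 (5 without shG9a_4 replicate 2), and 0 in the other comparisons.

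Members with an unadjusted p under 0.05 were 6 in shG9a_1 and came to 3 without the libraries numbered 1, 3 without those numbered 2, and 3 to 7 without single libraries. In shG9a_4 the 2 became 0 with no filter, 1 in DESeq2, 1 with unstranded counts, 0 and 0 without numbers 1 and 2, and 0 to 2. For the mean the 3 became 5 with no filter, 7 with the block and 3 to 5. Between the hairpins the 1 became 2 with no filter, 3 with the block, 0 and 0 without numbers 2 and 3, and 0 to 2. Members higher in shG9a_4 than in shSCR were 7 to 9 without single libraries. Members higher in shG9a_4 than in shG9a_1 were 2, 1 and 1 without numbers 1, 2 and 3, and 0 to 1 without single libraries. EHMT2 missed the threshold in shG9a_1 when shG9a_1 replicate 2 was left out (edgeR adjusted p = 0.0513), likewise shSCR replicate 1 (0.0611) and shG9a_1 replicate 3 (0.0622); no gene at all was called in these fits. Calls gained in shG9a_1 were AZGP1 with no filter, in DESeq2 and with the block (edgeR adjusted p = 0.0001709, DESeq2 0.01309, edgeR 0.01658), and, with no filter alone, MR1 (0.005142), CIITA (0.01107), HLA-DMA (0.01356) and HLA-DPB1 (0.04747); in shG9a_4 EHMT2 was gained with no filter (2.243e-05) and in DESeq2 (0.0009625). The cause of these differences was not tested.

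Among the fits of single genes, which did not include those without all libraries of a number, signs turned only without a single library, except for HLA-F-AS1. In shG9a_4 against shSCR the range over those fits was −0.033 to 0.16 for B2M, −0.12 to 0.28 for HLA-B and −0.040 to 0.099 for HLA-E, and between the hairpins it was −0.47 to 0.038 for HLA-B, −0.15 to 0.040 for B2M and −0.082 to 0.0011 for TAP2. Among the other genes named, the ranges that crossed 0 were, in shG9a_1, −0.048 to 0.032 for PSMB7 and −0.078 to 0.016 for PSME3, and in shG9a_4, −0.21 to 0.51 for CIITA, −0.0041 to 0.21 for CREB1, −0.26 to 0.91 for HLA-DMA, −0.74 to 0.74 for HLA-DPB1, −0.0034 to 0.32 for IFNGR1, −0.076 to 0.0044 for PSMA4, −0.034 to 0.057 for PSMA6, −0.21 to 0.063 for SOCS1, −0.026 to 0.058 for TAPBP, −0.097 to 0.13 for TAPBPL and −0.12 to 0.090 for HLA-F-AS1. HLA-F-AS1 in shG9a_4 was −0.0060 with RLE scaling, −0.0039 with no filter and −0.0035 in DESeq2, from a value of 0.0005. HLA-F and PSMB9 rest on few reads (277 to 591 and 146 to 318 per library), and their SE was 0.17 and 0.19 in shG9a_1 against 0.07 for TAP1.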

Other observations

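Class II genes were detected in all 9 libraries of this epithelial line and stood apart by replicate number more than by hairpin. HLA-DRA measured 10.2, 9.44 and 0.782 CPM over the shSCR libraries, 14.8, 19.1 and 1.45 CPM over shG9a_1 and 6.98, 15.9 and 0.787 CPM over shG9a_4. CD74, the invariant chain that escorts class II molecules, was at 7.5, 4.92 and 0.745 CPM, 9.04, 12.6 and 1.23 CPM, and 4.12, 8.66 and 0.861 CPM in the same order. CIITA was at 15.3, 11.4 and 4.82 CPM, 18.7, 22.4 and 5.51 CPM, and 13.1, 16.4 and 5.22 CPM. Replicate 3 was the lowest library of each hairpin for these 3 genes. The 9 class II genes tested all had a higher mean in shG9a_1 than in shSCR, with a median log2 fold change of 0.75 and none called. HLA-DMA, a peptide editor of class II, was at 0.75 in shG9a_1 and HLA-DPB1, a class II beta chain, at 0.92 (adjusted p = 0.847 and 0.879 in edgeR), and with the replicate block CIITA was at 0.50 (adjusted p = 0.157). With no filter on low counts edgeR called these 3 in shG9a_1 (adjusted p = 0.01356 for HLA-DMA, 0.04747 for HLA-DPB1 and 0.01107 for CIITA).

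The 8 leukocyte markers rest on CD14 alone, since the other 7 stayed under 0.1 CPM in every library. Their sum was 1.96 to 3.06 CPM in number 1, 4.31 to 6.27 CPM in number 2 and 3.86 to 4.56 CPM in number 3.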
